A study of Mus musculus with 18 samples.

Results

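The 40 genes described here are the mouse interferon response genes named here by symbol: STAT and IRF transcription factors, antiviral effectors, RNA sensors, feedback brakes, guanylate-binding and immunity-related GTPases and the chemokines Cxcl9 and Cxcl10. All 40 were among the 24346 gene symbols listed, and they were split by textbook knowledge into 17 gamma-type members, which interferon gamma chiefly induces, and 23 type I members. RNA was sequenced from islets of Langerhans, the endocrine clusters of the pancreas, isolated from C57BL/6 mice in 18 libraries. The 6 groups of 3 libraries were mice with exon 2 of Cdh13 deleted and mice with that exon floxed, each at 8 weeks on normal chow, at 14 weeks on normal chow, and at 14 weeks after 6 weeks of high-fat diet. Cdh13 encodes T-cadherin, a surface protein that binds adiponectin. The labels call the control genotype floxed, whereas the series design calls it wild type. They name no Cre driver and do not say whether each library came from 1 animal, so p-values measure only the spread between these libraries.

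Interferons are secreted proteins that warn cells of infection. Type I interferons signal through the receptor chains IFNAR1 and IFNAR2 and, with STAT2 and IRF9, switch on antiviral genes through an element in their promoters called the interferon-stimulated response element. Interferon gamma, made mainly by T and NK cells, signals through IFNGR1 and IFNGR2 and acts through gamma-activated sites, inducing IRF1, GTPases, CIITA and the chemokines CXCL9 and CXCL10. Beta cells respond to both kinds, and interferon signatures in islets are known from type 1 diabetes.

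Promoters are shown first for the 8 members lower in deleted islets on the high-fat diet that have an entry, and for Irf1, an early target of interferon gamma, because interferon acts through short elements there. Each is the 250 bases before a promoter start listed for the gene (GRCm38.p6, the assembly that mm10 names), written 5′ to 3′ on the gene's strand. For Ifit2, Ifit3, Irf7 and Gbp3 that start lies inside the RefSeq span of the gene, so the window is not the sequence before the span. Capitals mark every match to the paired GAAA motif (GAAA, any 2 bases, GAAA), a core of the interferon-stimulated response element. They also mark every match to TTCNNNGAA, a core of the gamma-activated site. Both strands were searched, so the paired motif also appears as its reverse complement.
Rsad2 (chr12:26456453-26456702, - strand): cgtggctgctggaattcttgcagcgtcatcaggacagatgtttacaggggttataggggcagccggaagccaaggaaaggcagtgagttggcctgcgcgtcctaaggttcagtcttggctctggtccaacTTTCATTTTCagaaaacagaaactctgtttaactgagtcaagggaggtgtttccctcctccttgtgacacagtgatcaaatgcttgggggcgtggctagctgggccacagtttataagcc
Ifit1 (chr19:34640639-34640888, + strand): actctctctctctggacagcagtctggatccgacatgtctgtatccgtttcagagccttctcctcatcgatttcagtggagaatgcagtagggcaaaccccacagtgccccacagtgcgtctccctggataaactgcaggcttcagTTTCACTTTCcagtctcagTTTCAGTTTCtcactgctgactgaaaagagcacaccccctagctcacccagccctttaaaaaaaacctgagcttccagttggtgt
Ifit2 (chr19:34550444-34550693, + strand): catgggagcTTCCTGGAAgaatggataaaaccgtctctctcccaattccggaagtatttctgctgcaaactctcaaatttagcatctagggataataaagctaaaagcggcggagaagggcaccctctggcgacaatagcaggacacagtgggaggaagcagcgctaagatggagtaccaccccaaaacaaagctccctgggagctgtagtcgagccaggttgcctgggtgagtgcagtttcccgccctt
Ifit3 (chr19:34583279-34583528, + strand): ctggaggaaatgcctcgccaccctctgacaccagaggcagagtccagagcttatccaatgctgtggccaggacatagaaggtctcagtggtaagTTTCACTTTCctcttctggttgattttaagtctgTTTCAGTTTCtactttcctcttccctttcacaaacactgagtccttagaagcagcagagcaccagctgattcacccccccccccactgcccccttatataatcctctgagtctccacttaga
Irf7 (chr7:141266425-141266674, - strand): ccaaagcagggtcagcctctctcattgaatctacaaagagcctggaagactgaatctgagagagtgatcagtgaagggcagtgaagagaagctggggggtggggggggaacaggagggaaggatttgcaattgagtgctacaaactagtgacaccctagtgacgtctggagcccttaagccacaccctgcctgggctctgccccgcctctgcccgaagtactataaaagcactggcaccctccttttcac
Bst2 (chr8:71537473-71537722, - strand): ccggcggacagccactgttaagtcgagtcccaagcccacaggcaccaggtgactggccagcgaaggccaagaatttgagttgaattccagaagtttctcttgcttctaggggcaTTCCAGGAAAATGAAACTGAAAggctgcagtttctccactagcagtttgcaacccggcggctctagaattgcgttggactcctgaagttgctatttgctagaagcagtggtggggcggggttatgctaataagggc
Cxcl10 (chr5:92348890-92349139, - strand): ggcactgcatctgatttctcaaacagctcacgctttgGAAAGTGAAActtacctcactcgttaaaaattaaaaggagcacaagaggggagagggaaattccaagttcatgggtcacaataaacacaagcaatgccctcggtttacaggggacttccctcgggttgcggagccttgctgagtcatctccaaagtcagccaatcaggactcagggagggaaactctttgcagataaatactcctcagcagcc
Gbp3 (chr3:142559794-142560043, + strand): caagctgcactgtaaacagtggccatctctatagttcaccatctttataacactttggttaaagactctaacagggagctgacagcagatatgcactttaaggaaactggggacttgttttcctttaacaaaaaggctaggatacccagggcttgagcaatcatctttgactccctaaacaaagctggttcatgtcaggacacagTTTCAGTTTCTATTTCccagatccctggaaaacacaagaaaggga
Irf1 (chr11:53769764-53770013, + strand): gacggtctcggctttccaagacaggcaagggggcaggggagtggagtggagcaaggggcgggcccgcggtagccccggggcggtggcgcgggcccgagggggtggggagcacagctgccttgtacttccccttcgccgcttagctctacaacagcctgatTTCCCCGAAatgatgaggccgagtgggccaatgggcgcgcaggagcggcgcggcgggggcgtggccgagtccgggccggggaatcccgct

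The Ifit1 and Ifit3 windows hold 2 copies of the paired GAAA motif, and the Rsad2 and Cxcl10 windows hold 1. The window of Irf7 holds neither motif, and that of Ifit2 holds only TTCNNNGAA. Of these 8 members 6 hold the paired GAAA motif and 2 hold TTCNNNGAA. Ifit2, Gbp3 and Irf1 have 2 windows each, and one with a match is shown. In Gbp3 and Bst2 copies of the paired GAAA motif overlap, and in Bst2 a TTCNNNGAA match overlaps them as well. The window of Irf1 holds TTCNNNGAA at positions -90 to -82 from the start and no paired GAAA motif. The Rsad2, Bst2 and Irf1 windows lie outside all listed genes, those of Ifit2, Ifit3, Irf7 and Gbp3 overlap the RefSeq span of the same gene, that of Ifit1 overlaps the spans of Ifit1bl1 and Ifit1bl2, and that of Cxcl10 overlaps the span of Art3. Promoter entries were found for 29 of 40 members, with 34 promoters in all. The paired GAAA motif occurred in 16 of these 34 promoters (47.1%), against 978 of all 32851 promoters of the same length (2.98%). TTCNNNGAA occurred in 8 of 34 (23.5%), against 2306 of all promoters (7.02%). By type, 8 of 12 gamma-type members with an entry and 8 of 17 type I members held the paired GAAA motif, and 5 of 12 and 3 of 17 held TTCNNNGAA. A match is a description of the letters and not a site of binding. Mx1, Mx2, Oas2, Usp18, Dhx58, Gbp6, Gbp9, Gbp11, Iigp1, Ciita and Zbp1 had no promoter entry.

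Levels are gene-level FPKM, fragments scaled to transcript length and library size, as deposited. Summed FPKM ran from 903346 to 1243323 in the 12 chow libraries and from 1337804 to 1394009 in the 6 high-fat diet libraries, so the sums parted by diet. Between 11474 and 11787 genes reached 1 FPKM per library. Ins2, an insulin gene, held 40.2% to 48.2% of the sum in the chow libraries and 50.2% to 52.7% in the high-fat diet libraries. How many fragments each library held is unknown, and from the spacing of low values the weight of 1 fragment spanned 1.38 times between libraries. Cdh13, measured over all its exons rather than the deleted one, lay at 1.08 to 2.06 FPKM in floxed and 0.247 to 0.809 FPKM in deleted libraries. Differences below are of log2(FPKM + 1), which understates the change of low genes, and a gene was called where limma's p, adjusted by Benjamini-Hochberg over the 12234 genes tested, was below 0.05. A gene entered the test where 3 or more of the 18 libraries reached 1 FPKM, which took in 27 of the 40 members. The 13 others (Socs1, Gbp9, Isg15, Oas2, Zbp1, Ifi44, Mx1, Mx2, Iigp1, Gbp5, Ciita, Oas3 and Cxcl9) were read from their values and from the same model without the filter on 18802 genes.

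By level per length, Irf1, the early transcription factor of the gamma response, stood highest, at 41.6 ± 1.99 FPKM (mean ± SD over 18 libraries). Irgm1, an immunity-related GTPase of autophagy and defence, followed at 16.3 ± 1.71 FPKM, and Usp18, the protease that removes ISG15 and damps type I signalling, at 15.7 ± 2.39 FPKM. These 2 did not differ beyond their spread. Irf9, the DNA-binding part of the type I complex, was at 10.7 ± 1.73 FPKM and Cd274, the gene of the checkpoint ligand PD-L1, at 10.2 ± 1.18 FPKM, again within each other's spread. Cxcl9, a gamma-induced T cell chemokine, was listed at 0 in 16 of 18 libraries and never exceeded 0.0251 FPKM, and Ciita, the master regulator of MHC class II genes, stayed at or below 0.138 FPKM.

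**Figure D1:**
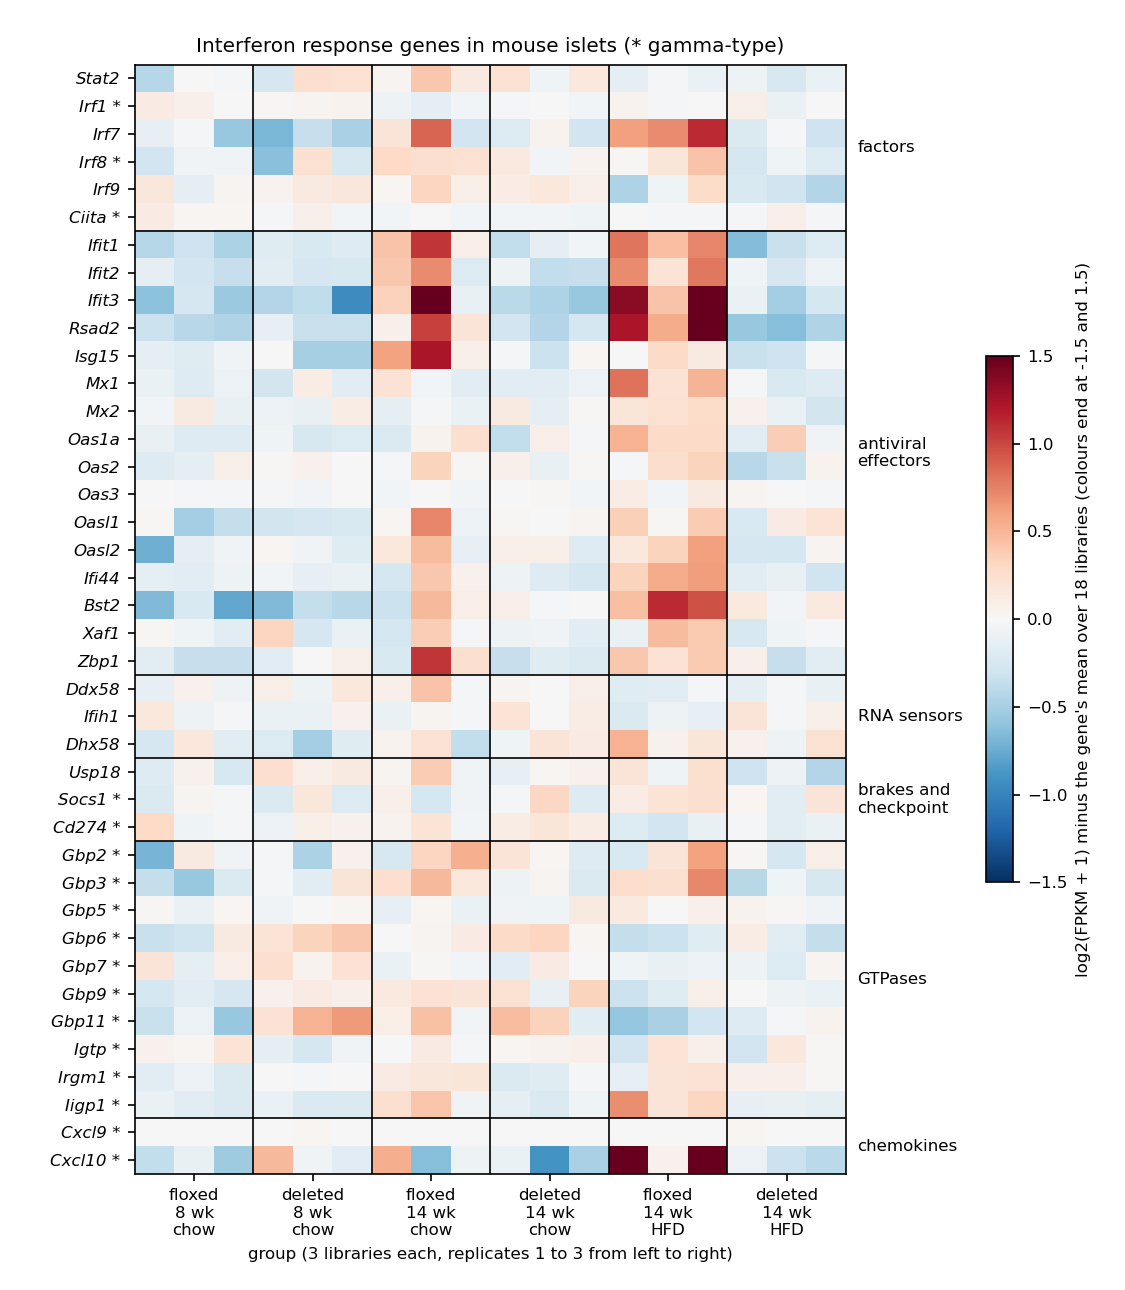
Each row is 1 of the 40 members, grouped by role, and each column 1 of the 18 libraries, grouped by genotype, age and diet. Colour gives log2(FPKM + 1) minus the gene's mean over the 18 libraries, and the warm block of antiviral effectors stands over the 3 floxed high-fat diet libraries and over replicate 2 of the floxed 14-week chow libraries.

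Among the ligands, interferon gamma transcript was present on the high-fat diet alone. Ifng was listed at 0 FPKM in all 12 chow libraries, at 17.5, 13.2 and 16.3 FPKM in the floxed high-fat diet libraries and at 11.2, 11.8 and 12.3 FPKM in the deleted ones. With diet permuted within genotype in the 12 libraries of 14 weeks, the exact permutation p (two-sided) was 0.005, the smallest that 400 arrangements give. Ifng was chosen with earlier results of these data known. With every diet library above every chow library that p could take no other value, so it adds nothing to the separation. The 3 floxed high-fat diet libraries lay above the 3 deleted ones (mean difference -0.38 in log2(FPKM + 1), deleted minus floxed), where an exact permutation test of 3 against 3 gives p = 0.1 at best, which is the value here. The type I and III interferon genes Ifnb1, Ifna4, Ifnl2 and Ifnl3 were listed at 0 in all 18 libraries. Some T and NK cell genes moved with Ifng, with 14 summed markers at 0.103 to 0.501 FPKM on chow and 7.31 to 15.3 FPKM on the diet. Gzmb was a large part of the diet sum, at a median of 6.83 FPKM beside a summed median of 10.2 FPKM in floxed libraries. In deleted libraries these medians were 10.2 and 13.1 FPKM. The granzyme genes Gzma and Gzmb were listed at 0 in all 12 chow libraries and measured 0.640 to 1.72 FPKM and 4.77 to 11.5 FPKM on the diet, and the cytotoxic granule gene Nkg7 measured at most 0.138 FPKM and then 0.431 to 1.27 FPKM. These 3 reached the filter through the diet libraries alone, so their rise is given without a test. The genes of the T cell receptor complex Cd3d (0 in all 6 high-fat diet libraries), Cd3e (0 in 5 of 6, at most 0.346 FPKM) and Cd3g (0 in 3 of 6, at most 0.361 FPKM) and the co-receptor gene Cd8a (0 in 5 of 6) stayed at or near 0. The co-receptor gene Cd4 measured at most 0.205 FPKM on the diet and at most 0.21 FPKM on chow.

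The receptors through which Ifng acts were present throughout. Ifngr1 lay between 16.03 and 24.14 FPKM and Ifngr2 between 9.20 and 14.1 FPKM over the 18 libraries, and neither was called for diet or genotype. Ifnar1, at 4.66 to 7.18 FPKM, and Ifnar2, at 49.4 to 65.7 FPKM, were not called either. Ifnar1 did lie lower on the diet without overlap in both genotypes, with limma's unadjusted p below 0.05 in each. It measured 4.66 to 5.10 FPKM against 5.49 to 6.04 FPKM in floxed and 4.87 to 5.37 FPKM against 5.48 to 6.61 FPKM in deleted islets. In deleted islets Ifngr2 also lay lower on the diet, at 9.20 to 10.58 FPKM against 11.03 to 12.63 FPKM. Jak1, a kinase bound to both receptor types, fell on the diet in floxed islets by 0.32 (SE 0.06, adjusted p = 4.64e-04), from 60.8 to 68.3 FPKM down to 49.9 to 52.5 FPKM, and was not called in deleted islets (-0.08, adjusted p = 0.408). Socs3, a feedback inhibitor of cytokine receptors, fell on the diet by 0.88 in floxed (adjusted p = 0.00353) and by 1.22 in deleted islets (adjusted p = 5.73e-04).

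Whether the gamma-type targets followed Ifng on the diet was read from the 17 gamma-type members, of which limma called 1 higher in floxed islets and none higher in deleted islets. In floxed islets 1 of the 11 tested rose (Cxcl10) and 2 fell (Cd274 and Gbp11), where 15.0% of all tested genes rose and 13.5% fell. In deleted islets none of the 11 rose or fell by limma, against 9.05% and 5.91% of all tested genes. In deleted islets 3 of the 11 had an unadjusted p below 0.05, with Cd274, Gbp6 and Irgm1 at -0.24, -0.35 and 0.20 (adjusted p = 0.112, 0.104 and 0.118). Of all 12234 tested genes 3551 had such a p there. Over all 17 members without the filter the median difference was -0.014 in floxed and -0.058 in deleted islets, against 0.0 over all 18802 genes. In that model 1 member was higher (Cxcl10) and 1 lower (Gbp11) in floxed islets, where 9.09% of all genes were higher and 8.36% lower, and none was called in deleted islets, where 5.35% were higher and 3.47% lower. Lack of overlap between the diets, named for some genes in this report, describes those libraries only. The share of all genes that did not overlap between the diets is not given.

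Cxcl10, the chemokine that draws CXCR3-bearing T cells, measured 5.44, 1.39 and 5.98 FPKM in the floxed high-fat diet libraries, against 2.33, 0.469 and 1.16 FPKM in floxed libraries of the same age on chow. Replicates 1 and 3 on the diet were high, replicate 2 was not, and the groups overlapped. The difference was 1.12 (SE 0.36, adjusted p = 0.0317), and the call ended with a pseudocount of 0.1, when the fit held these groups alone, and without replicate 2 or 3 of the chow group or replicate 1 or 3 of the diet group. In deleted islets Cxcl10 stood at 1.15, 0.818 and 0.723 FPKM on the diet and at 1.13, 0.225 and 0.632 FPKM on chow, which overlapped (0.22, adjusted p = 0.743), although Ifng was at 11.2 FPKM or more there.

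Irf1, which gamma interferon induces within hours in most cells, measured 43.2, 41.1 and 41.2 FPKM on the diet in floxed islets against 39.2, 37.4 and 40.2 FPKM on chow, a small shift without overlap that was not called (0.10, SE 0.06, adjusted p = 0.217). In deleted islets it measured 44.1, 38.8 and 41.8 FPKM on the diet against 40.9, 41.5 and 40.4 FPKM on chow (0.02, adjusted p = 0.854). Among the GTPases, Gbp11 fell in floxed islets, from 1.17, 1.75 and 0.968 FPKM on chow to 0.354, 0.446 and 0.657 FPKM on the diet (-0.62, SE 0.18, adjusted p = 0.0133). All 3 diet libraries lay below all 3 chow libraries, and the call ended without replicate 2 of the chow group (-0.48, adjusted p = 0.0799) or replicate 1 of the diet group. Its neighbours on chromosome 5, Gbp6 and Gbp9, likewise lay lower on the diet in floxed islets without overlap, at 1.35 to 1.65 FPKM against 2.02 to 2.28 FPKM and at 0.280 to 0.693 FPKM against 0.771 to 0.859 FPKM. Gbp6 was not called (-0.34, adjusted p = 0.0733). The guanylate-binding protein genes of chromosome 3, Gbp2, Gbp3, Gbp5 and Gbp7, overlapped between diets in both genotypes.

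Cd274 measured 8.68, 8.14 and 9.37 FPKM on the diet in floxed islets against 10.6, 11.8 and 9.83 FPKM on chow. The groups did not overlap and the fall was 0.27 on the log2 scale (SE 0.10, adjusted p = 0.0449). This call ended in 14 of its 26 alternatives, among them no filter, quantile normalization and the removal of any of 10 libraries, and in deleted islets the difference was of like size (-0.24, adjusted p = 0.112). There Cd274 also did not overlap, at 8.89 to 10.02 FPKM on the diet and 11.09 to 11.65 FPKM on chow. Of the gamma-type members left out by the filter, Iigp1, an immunity-related GTPase, lay at 0.337 to 0.892 FPKM on the diet and 0.127 to 0.554 FPKM on chow in floxed islets, and at 0.0527 to 0.0805 FPKM and 0 to 0.119 FPKM in deleted islets, overlapping in both. Socs1, the inhibitor of the gamma receptor's kinases, did not overlap in floxed islets, at 0.728, 0.841 and 0.899 FPKM on the diet and 0.685, 0.331 and 0.546 FPKM on chow, and overlapped in deleted islets. Irgm1 did the reverse, at 17.1, 17.1 and 16.5 FPKM on the diet and 13.8, 14.2 and 15.9 FPKM on chow in deleted islets and with overlap in floxed islets, and Igtp and Gbp2 overlapped in both. Irf8 lay lower without overlap in deleted islets, at 2.03 to 2.45 FPKM on the diet and 2.50 to 2.98 FPKM on chow. It was not called there (-0.22, adjusted p = 0.389) and overlapped in floxed islets. For the 13 untested members diet was permuted within genotype, 1 test each with no adjustment. Gbp9 gave a mean difference of -0.27 (p = 0.025) and Ciita, which is close to 0 everywhere, one of 0.04 (p = 0.015) by the exact permutation test, and the other 11 gave p = 0.12 or more.

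**Figure D2:**
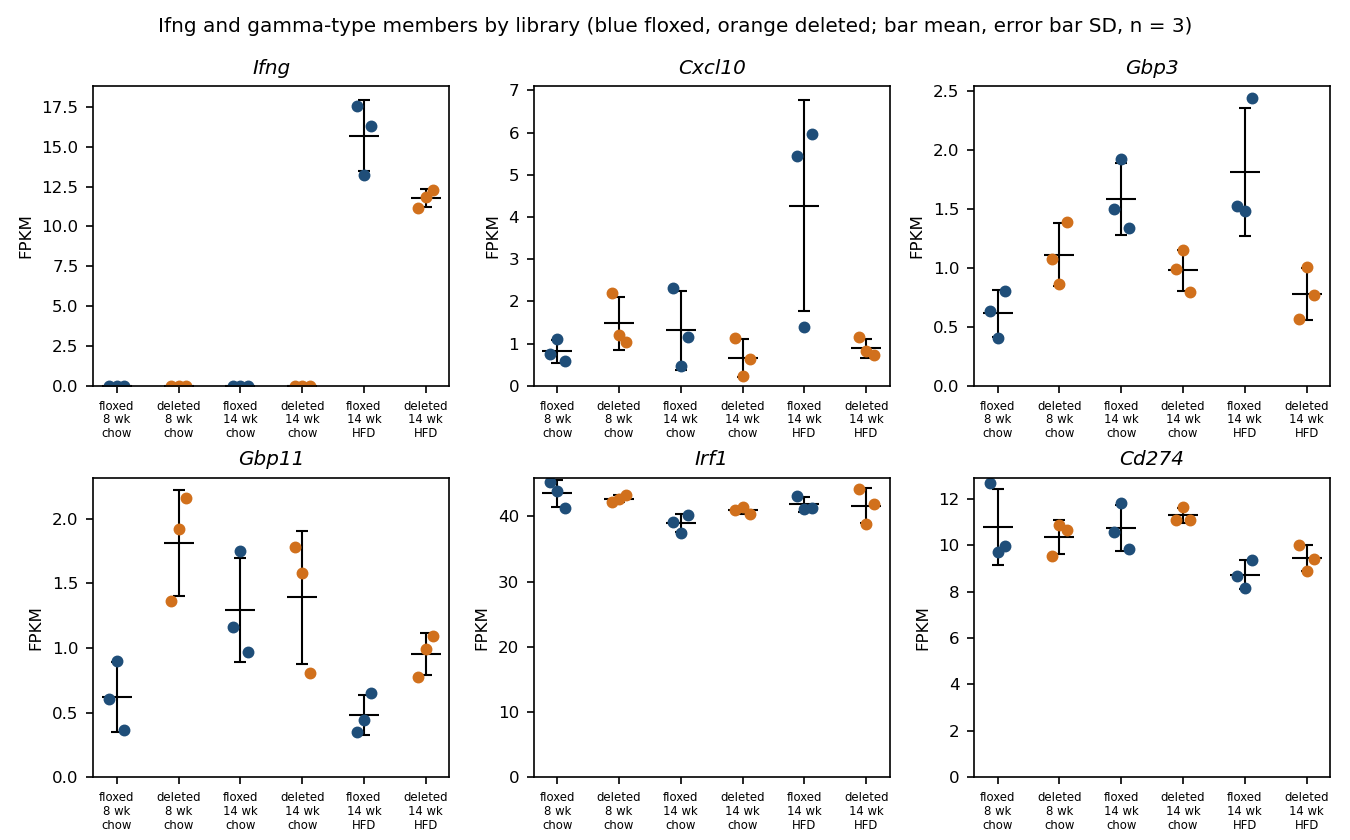
FPKM (y axes from 0) of Ifng and 5 gamma-type members in the 18 libraries, by group along the x axis. Points are libraries, horizontal bars the group mean and error bars the SD (n = 3). Ifng is at 0 in every chow library and at 11.2 FPKM or more in every high-fat diet library. Of the 5 members plotted, Cxcl10 in 2 floxed libraries stands above all its chow values, at 5.44 and 5.98 FPKM. Gbp3 does so in floxed high-fat diet replicate 3, at 2.44 FPKM.

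Of the 16 tested type I members, 2 rose on the diet in floxed islets (Bst2 and Rsad2) and none fell, where 15.0% of all tested genes rose and 13.5% fell, with 4 at an unadjusted p below 0.05 in the higher direction and 1 in the lower. Of all 12234 tested genes 4857 had such a p, in either direction. Without the filter 4 of all 23 rose (Bst2, Ifi44, Mx1 and Mx2) and none fell, where 9.09% of all genes rose and 8.36% fell, and the median difference of the 23 was 0.20 against 0.0 over all genes. Bst2, which encodes tetherin, the protein that holds budding virus at the cell surface, measured 10.8, 17.7 and 15.7 FPKM on the diet and 5.93, 11.1 and 8.24 FPKM on chow in floxed islets. Replicate 2 of the chow group alone reached the lowest diet library, and the rise was 0.75 (SE 0.18, adjusted p = 0.00536), which ended as a call when these groups were fitted alone. Rsad2, the gene of the antiviral enzyme viperin, measured 8.61, 5.07 and 10.8 FPKM on the diet and 3.34, 7.41 and 3.70 FPKM on chow in floxed islets. Replicate 2 of the chow group lay above replicate 2 of the diet group, and the rise of 0.67 (SE 0.21, adjusted p = 0.0253) ended without the filter, with sample quality weights, with these groups fitted alone and without replicate 1 or 3 of either group. Oas1a lay higher on the diet without overlap in floxed islets, at 2.89 to 3.56 FPKM against 1.735 to 2.80 FPKM. It was not called (0.34, adjusted p = 0.103).

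In deleted islets limma called none of the 16 tested type I members higher on the diet, and none had an unadjusted p below 0.05 in that direction. Irf9 fell, from 11.4, 11.8 and 11.3 FPKM on chow to 8.87, 8.37 and 7.51 FPKM on the diet (-0.44, SE 0.13, adjusted p = 0.0297), with no overlap. That call ended without the filter and without any of the 3 chow libraries or replicate 2 or 3 of the diet libraries. Rsad2 lay lower without overlap in deleted islets, at 1.64 to 2.01 FPKM on the diet and 2.03 to 2.42 FPKM on chow. It was not called (-0.22, adjusted p = 0.549). Stat2 and Ddx58 lay lower on the diet without overlap in both genotypes and were called in neither. Stat2, the partner of Irf9, measured 5.65, 6.23 and 5.89 FPKM against 6.58, 8.76 and 7.11 FPKM on chow in floxed islets (-0.29, adjusted p = 0.136) and 5.98, 5.22 and 5.85 FPKM against 7.66, 6.04 and 7.22 FPKM in deleted islets (-0.25, adjusted p = 0.252). Ddx58 measured 4.17, 4.23 and 4.80 FPKM against 5.19, 6.91 and 4.81 FPKM in floxed islets (-0.29, adjusted p = 0.0575) and 4.29 to 4.80 FPKM against 4.87 to 5.22 FPKM in deleted islets (-0.14, adjusted p = 0.454). The test of the difference itself, the interaction of genotype with diet, called none of the 27 tested members at 14 weeks, where 3.53% of all tested genes were called, so no diet effect of a member was shown to differ between genotypes. At an unadjusted p below 0.05 there were 3, of which Rsad2 (-0.89, SE 0.30, adjusted p = 0.123) and Bst2 (-0.69, SE 0.26, adjusted p = 0.172) were lower and Irgm1 (0.26, SE 0.12, adjusted p = 0.263) was higher. Of all 12234 tested genes 2089 had such a p in this test. The diet comparison in floxed islets and the genotype comparison on the diet, which comes later, share the floxed high-fat diet libraries.

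Markers of other cell types moved in the same diet comparisons. In floxed islets 9 of 9 tested acinar markers fell, with the summed markers at 749 to 3960 FPKM on chow and 7.85 to 248 FPKM on the diet, and 6 of 8 tested macrophage markers fell, with sums of 329 to 378 FPKM and 195 to 219 FPKM. Of the endothelial markers 3 of 9 fell, of the fibroblast and stellate markers 2 of 6 and of the delta cell markers both, while 4 of 8 beta cell markers rose and 1 fell. Of all tested genes 15.0% rose and 13.5% fell there. In deleted islets 7 of 9 acinar, 5 of 6 fibroblast and stellate, 3 of 9 endothelial and 2 of 8 macrophage markers fell, and 7 of 8 beta cell markers rose. There 9.05% of all tested genes rose and 5.91% fell. The part of these markers in the diet differences of the members was not tested.

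On the high-fat diet part of the interferon response genes were lower in deleted than in floxed islets. By limma 9 of the 27 tested members were lower, 5 of them among the 9 tested antiviral effectors, 18 were not called and none was higher (2 at an unadjusted p below 0.05 in that direction), where 6.02% of all tested genes were lower and 4.70% higher. Of all 12234 tested genes 3146 had such an unadjusted p, in either direction. Without the filter, 12 of all 40 were lower and none higher, against 3.85% and 2.83% of all genes, and the median of the 40 was -0.28 against 0.0. The deleted and floxed libraries did not overlap for 17 members that were lower and 2 that were higher (Ifih1 and Gbp11), 19 of 40 in all, where 23.9% of all genes above 0 in any library did not overlap. All 16 antiviral effectors had a negative difference, 11 of them without overlap, and their median was -0.51.

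Rsad2 had the largest of the 9 called differences. Its 8.61, 5.07 and 10.8 FPKM in floxed high-fat diet libraries stood against 1.78, 1.64 and 2.01 FPKM in deleted ones, so that the lowest floxed library was above every deleted library (-1.65, SE 0.21, adjusted p = 6.34e-05). Means were 8.17 ± 2.90 and 1.81 ± 0.189 FPKM (SD, n = 3 each). The Ifit genes, whose products bind foreign RNA and lie side by side on chromosome 19, were low together. Ifit1 measured 8.38, 6.32 and 7.91 FPKM in floxed and 2.41, 3.26 and 3.67 FPKM in deleted libraries (-1.06, SE 0.18, adjusted p = 6.89e-04). Ifit3 measured 6.84, 3.15 and 10.3 FPKM against 1.87, 1.15 and 1.57 FPKM (-1.51, SE 0.39, adjusted p = 0.0215). Neither gene's groups overlapped, and replicate 2 was the lowest of the floxed libraries for both. Reads of Ifit3 may be shared with its near copy Ifit3b, which was itself lower (-0.97, adjusted p = 0.00699). Ifit2, at 1.44, 0.720 and 1.60 FPKM against 0.431, 0.255 and 0.404 FPKM (-0.70, SE 0.19, adjusted p = 0.0226), entered the test through 3 floxed libraries only, so its call describes that choice as well.

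Irf7, the factor that amplifies type I interferon production, measured 5.46, 5.85 and 8.10 FPKM in floxed and 2.61, 3.13 and 2.40 FPKM in deleted high-fat diet libraries (-0.996, SE 0.22, adjusted p = 0.00641). Bst2 measured 10.8, 17.7 and 15.7 FPKM against 8.59, 7.42 and 8.57 FPKM (-0.75, SE 0.18, adjusted p = 0.0131). In both genes every floxed library exceeded every deleted one. Usp18 measured 17.97, 14.9 and 18.5 FPKM against 12.4, 14.7 and 11.2 FPKM, barely without overlap (-0.40, SE 0.12, adjusted p = 0.0354). Among gamma-type members Cxcl10 (-1.33, SE 0.36, adjusted p = 0.0285) and Gbp3 (-0.65, SE 0.16, adjusted p = 0.00992) were lower. Gbp3 stood at 1.53, 1.48 and 2.44 FPKM in floxed and 0.565, 1.01 and 0.770 FPKM in deleted libraries.

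Effectors too low for the filter lay the same way. Mx1, a GTPase that blocks influenza virus in mice with an intact allele, measured 1.12, 0.407 and 0.717 FPKM in floxed and 0.181, 0.0294 and 0.0578 FPKM in deleted high-fat diet libraries (-0.66 without the filter, adjusted p = 0.00538). Ifi44, a gene of less known role, measured 0.547, 0.803 and 0.901 FPKM against 0.0955, 0.136 and 0 FPKM (-0.70, adjusted p = 0.00262). Iigp1 (-0.53, adjusted p = 0.00966) and Mx2 (-0.33, adjusted p = 0.0421) were lower too, and Isg15 and Zbp1 did not overlap between genotypes without being called. All of these values lie near or below 1 FPKM.

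The oligoadenylate synthetase family, whose members sense double-stranded RNA, was less uniform. Oasl2 measured 4.44, 5.11 and 6.44 FPKM in floxed and 3.08, 3.05 and 3.98 FPKM in deleted high-fat diet libraries, without overlap, and missed the threshold (-0.53, SE 0.17, adjusted p = 0.0560). Oas1a, at 3.56, 2.89 and 2.89 FPKM against 1.84, 3.09 and 2.05 FPKM, overlapped through deleted replicate 2 (-0.32, adjusted p = 0.188), and Oasl1 overlapped as well (-0.22, adjusted p = 0.479). Oas2 and Oas3 did not exceed 0.716 and 0.135 FPKM in any library. Xaf1, an inducible promoter of cell death, stood at 2.90, 4.81 and 4.47 FPKM against 2.55, 3.00 and 3.10 FPKM, so that floxed replicate 1 lay among the deleted libraries (-0.36, adjusted p = 0.179). Irf8, a factor of macrophages and dendritic cells, did not overlap, at 2.63, 3.09 and 3.85 FPKM against 2.03, 2.45 and 2.13 FPKM, and was not called (-0.38, SE 0.16, adjusted p = 0.137). Isg15, the ubiquitin-like protein that Usp18 removes, measured 0.401, 0.713 and 0.550 FPKM against 0.117, 0.133 and 0.391 FPKM, and Zbp1 0.679, 0.477 and 0.659 FPKM against 0.335, 0 and 0.125 FPKM.

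Not every member was lower. Ifih1, the RNA sensor MDA5, lay higher in deleted islets without overlap, at 5.82, 4.88 and 5.33 FPKM against 4.16, 4.67 and 4.50 FPKM. The RNA sensors Ddx58 (RIG-I, 0.03), Ifih1 (0.22) and Dhx58 (-0.19) were not called (adjusted p = 0.906, 0.160 and 0.508). Irf1 (-0.01, SE 0.06), Irgm1 (-0.04, SE 0.08), Igtp (-0.04, SE 0.12), Gbp7 (0.01, SE 0.11) and Stat2 (-0.05, SE 0.14) had differences within 1 SE of 0. Gbp11 lay higher in deleted islets without overlap, at 0.773, 0.996 and 1.09 FPKM against 0.354, 0.446 and 0.657 FPKM, and was not called (0.40, SE 0.18, adjusted p = 0.162). The calls of Rsad2, Ifit1 and Irf7 held in all 25 alternatives. Those of Cxcl10, Ifit2 and Ifit3 ended without replicate 1 or 3 of the floxed group and with replicates of the deleted group taken out in turn (any of the 3 for Cxcl10, 1 or 2 for Ifit2, 2 or 3 for Ifit3). When the fit held these groups alone that of Cxcl10 ended, and with quantile normalization that of Ifit2. Those of Gbp3 ended without floxed replicate 3 or deleted replicate 1, those of Bst2 without floxed replicate 2 or 3 or deleted replicate 2, and that of Usp18 without the filter, with sample quality weights and without replicate 1 or 3 of either group. The number of members lower was 3 without floxed replicate 3 and 5 without deleted replicate 1 or 2.

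**Figure D3:**
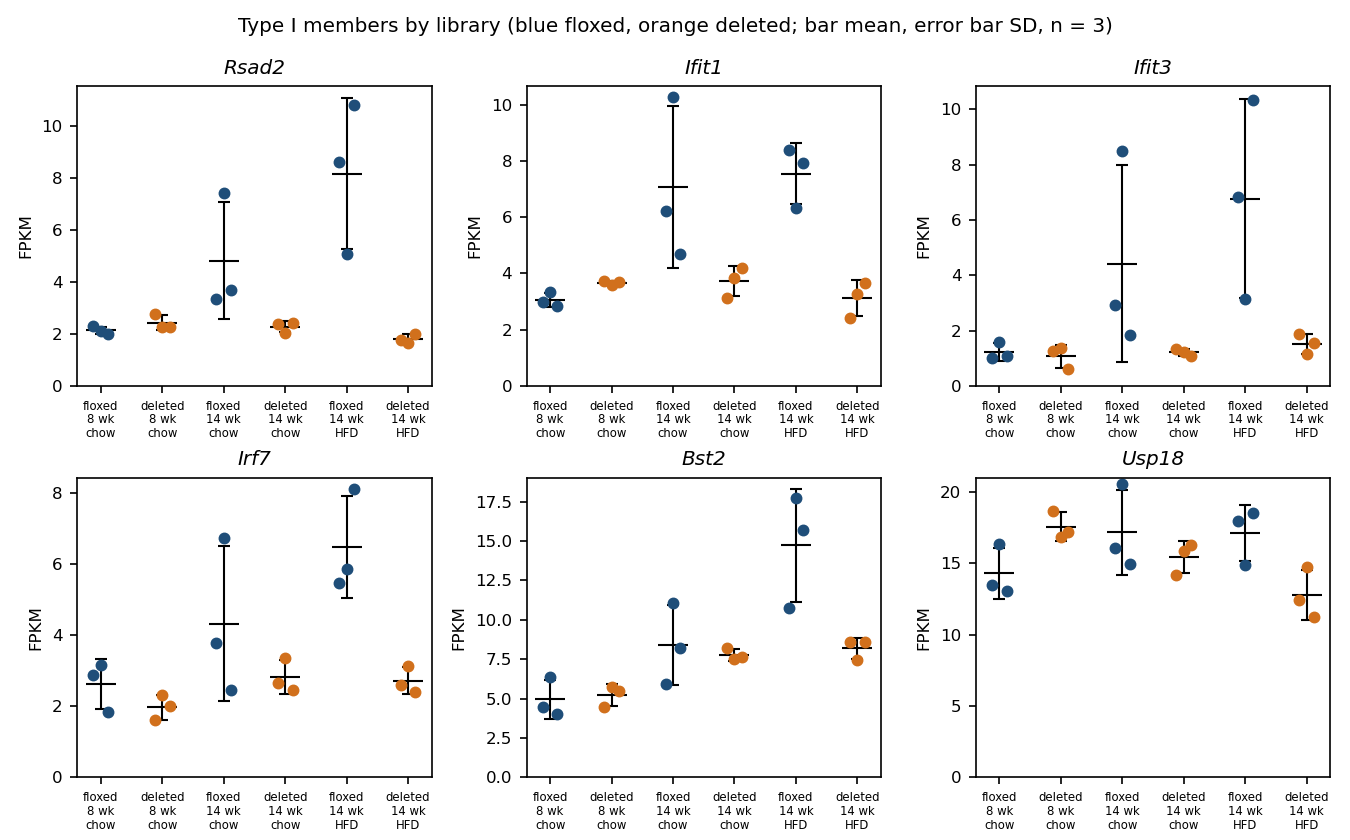
FPKM (y axes from 0) of 6 type I members in the 18 libraries, by group along the x axis. Points are libraries, horizontal bars the group mean and error bars the SD (n = 3). On the high-fat diet the 3 floxed libraries stand above the 3 deleted ones for all 6 genes, and replicate 2 of the floxed 14-week chow group is the highest of its group for each.

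**Figure D4:**
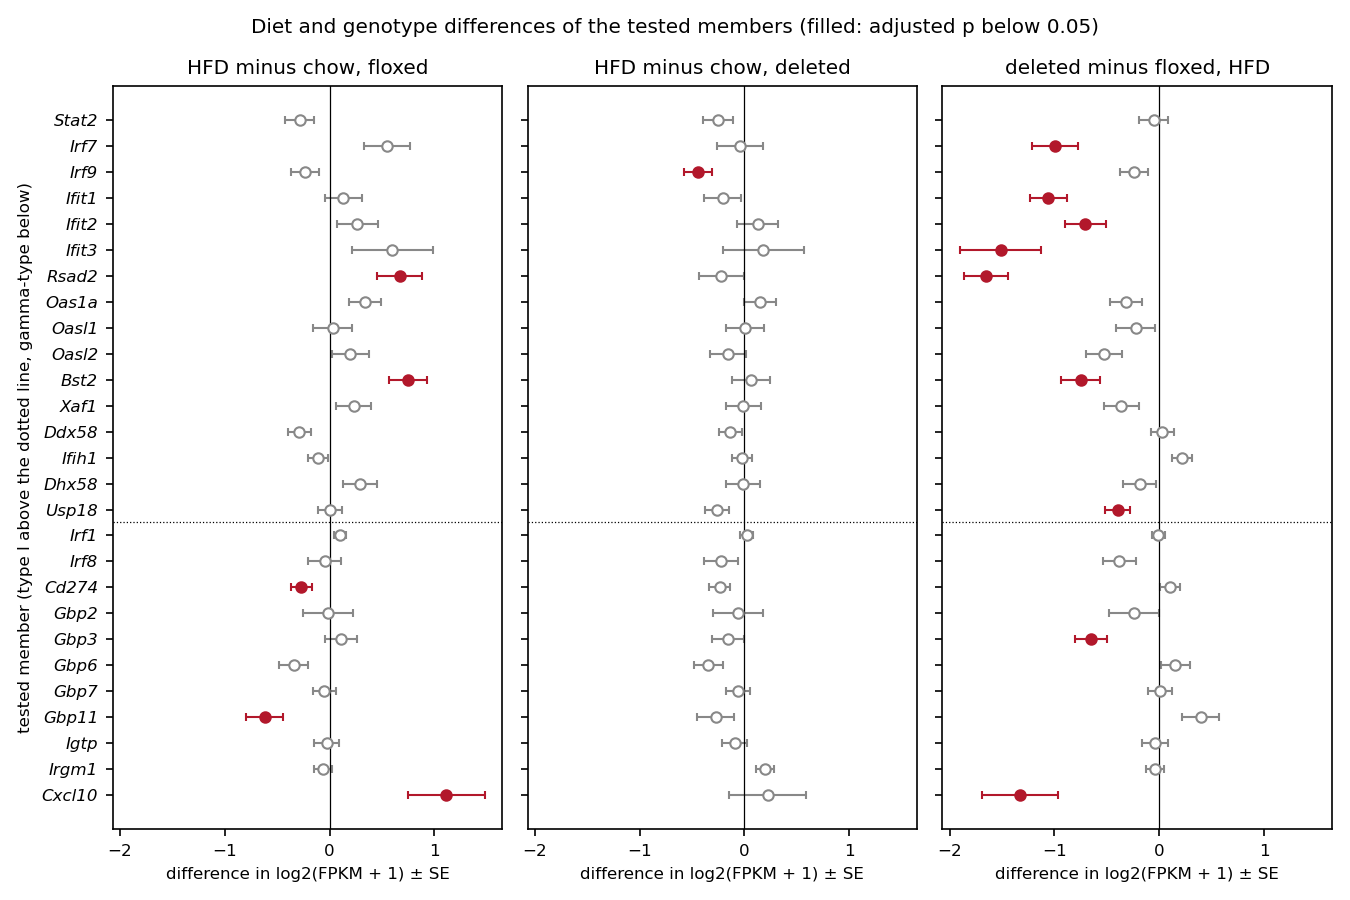
Differences in log2(FPKM + 1) with limma's SE (x axis) for the 27 tested members (y axis, type I above the dotted line and gamma-type below) for diet in each genotype and for genotype on the high-fat diet. Filled points are called, 9 of them in the genotype comparison and all of those negative.

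Other genes changed in the same libraries. Of 10 endothelial markers 9 were tested and 6 were lower in deleted islets on the diet (Cdh5, Egfl7, Esam, Pecam1, Tek and Tie1), with the summed markers at 157 to 200 FPKM in floxed and 129 to 136 FPKM in deleted libraries. Summed fibroblast and stellate markers were 8.70 to 24.0 FPKM and 5.40 to 8.64 FPKM, with 1 of 6 tested markers lower (Pdgfrb). Summed macrophage markers overlapped, at 195 to 219 FPKM and 201 to 215 FPKM, with C1qa lower and Lyz2 higher among 8 tested. The 3 alpha cell and the 2 delta cell markers were all higher in deleted islets, as were 2 of 8 beta cell markers. Of all tested genes 6.02% were lower and 4.70% higher in this comparison. The T and NK cell sum overlapped, at 7.31 to 15.3 FPKM in floxed and 11.4 to 14.8 FPKM in deleted libraries, and none of its 3 tested markers was called by limma, with Gzmb (0.41) and Nkg7 (0.37) at an unadjusted p below 0.05. Of all 12234 tested genes 3146 had such a p. The part of any of these cell types in the lower interferon response genes was not tested, and in whole islets fewer cells of a type and less RNA per cell cannot be told apart.

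**Figure D5:**
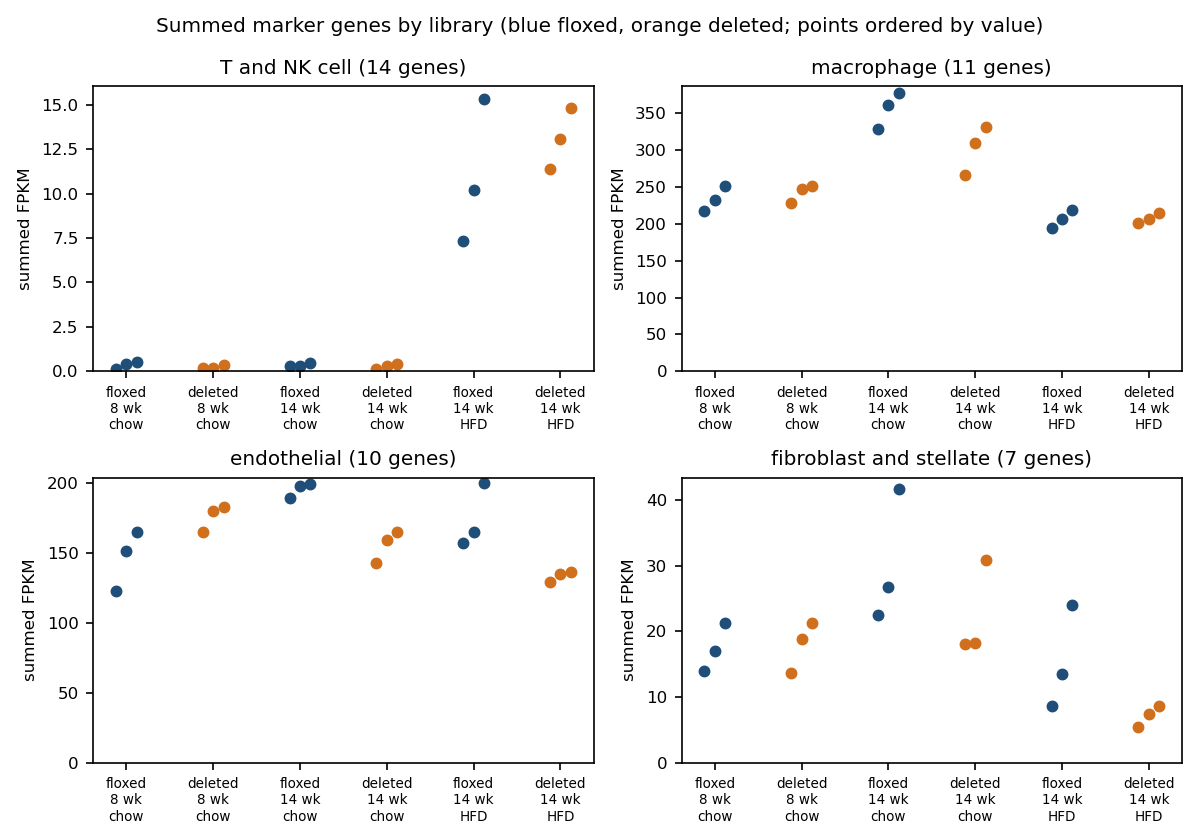
Summed FPKM (y axes from 0) of marker genes for 4 cell types, by group along the x axis, with 1 point per library ordered by value within its group. The T and NK cell sum, of which Gzmb is a large part, rises from at most 0.501 FPKM on chow to at least 7.31 FPKM on the high-fat diet. Endothelial markers are lower in deleted than in floxed islets at 14 weeks.

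From the wider pathway, 55 receptor, kinase, factor, brake, sensor and induced genes were listed beside the members. On the high-fat diet 4 of its 39 tested genes were lower in deleted islets and 1, Jak1 (0.23, adjusted p = 0.0152), was higher, where 6.02% of all tested genes were lower and 4.70% higher. The lower ones were induced genes. Cmpk2, a mitochondrial nucleotide kinase gene next to Rsad2 in the genome, measured 14.4, 13.3 and 15.4 FPKM in floxed and 8.71, 8.19 and 8.19 FPKM in deleted libraries (-0.71, SE 0.10, adjusted p = 1.58e-04). Rtp4 (-0.66, adjusted p = 0.0207), Ifit3b and Ccl5, a T cell chemokine gene (-1.21, adjusted p = 0.0216), were the others. In floxed islets on the diet 3 of the 39 rose (Cmpk2 by 0.42, Rtp4 by 0.55 and Trim25 by 0.35) and 5 fell (Irgm2, Jak1, Pias1, Socs3 and Stat3), where 15.0% of all tested genes rose and 13.5% fell. In deleted islets limma called none of them higher, with 1 at an unadjusted p below 0.05 in that direction, and Samd9l and Socs3 fell, where 9.05% of all tested genes rose and 5.91% fell. Of all 12234 tested genes 3551 had such a p, in either direction. Without the filter 1 of the 55 was higher and 1 lower there, where 5.35% and 3.47% of all genes were. The induced gene Serpina3g, below the filter, was at 0 in 11 of 12 chow libraries and at most at 0.0763 FPKM. On the diet it measured 0.0362 to 0.570 FPKM in the 6 libraries. For Cmpk2 the genotype by diet test itself passed (-0.59, SE 0.14, adjusted p = 0.0270), the only one of the 39 to do so, where 3.53% of all tested genes did.

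On chow the genotypes differed at 1 member. At 8 weeks Gbp11 was higher in deleted islets, at 1.37, 1.92 and 2.16 FPKM against 0.607, 0.901 and 0.363 FPKM (0.80, SE 0.18, adjusted p = 0.0455), and 0.180% of all tested genes were called higher. The groups did not overlap, but the call ended in 16 of 25 alternatives, among them no filter, a pseudocount of 0.1 and the removal of any of the 6 libraries of that age. Gbp6 and Gbp9, the other 2 members of its chromosome 5 cluster, also lay higher without overlap, and 8 of 40 members did so in all, against 6.39% of genes, while Igtp alone lay lower, against 6.90%. Summed endothelial markers were 123 to 165 FPKM in floxed and 165 to 183 FPKM in deleted libraries at that age, and their part was not tested. At 14 weeks none of the 27 was called by limma, against 0.114% of all tested genes, and 6 had an unadjusted p below 0.05, all lower, with the largest differences for Ifit3 (-1.10), Rsad2 (-0.76) and Ifit1 (-0.72). Of all 12234 tested genes 976 had such a p, in either direction. Ifit1, Ifit3, Rsad2, Isg15, Gbp3, Irf8, Irgm1 and Iigp1 lay lower in deleted islets without overlap, 8 of 40 against 6.39% of genes. Irf1 alone lay higher without overlap, at 40.9, 41.5 and 40.4 FPKM against 39.2, 37.4 and 40.2 FPKM, where 4.90% of genes did. In the same libraries 6 of 10 endothelial markers (summed 189 to 199 FPKM in floxed, 143 to 165 FPKM in deleted) and 6 of 11 macrophage markers (329 to 378 FPKM and 266 to 331 FPKM) lay lower without overlap, and their part in the result was not tested. With sample quality weights 3 members were called lower there.

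Between 8 and 14 weeks on chow, 4 of 27 members rose in floxed islets (Ifit1 by 0.93, Rsad2 by 0.83, Gbp3 by 0.68 and Irgm1 by 0.31), where 3.20% of all tested genes rose. Ifit1 went from 3.00, 3.33 and 2.86 FPKM to 6.23, 10.3 and 4.70 FPKM, and Rsad2 from 2.29, 2.10 and 2.02 FPKM to 3.34, 7.41 and 3.70 FPKM, both without overlap. Replicate 2 of the 14-week floxed chow group was the highest of its group for most antiviral effectors, with Ifit3 at 8.49 FPKM against 2.91 and 1.85 FPKM and Zbp1, a sensor of Z-form nucleic acid, at 1.65 FPKM against 0.0780 and 0.493 FPKM. Without that library only Ifit1 remained called (0.66, adjusted p = 0.0269), and the calls of Rsad2 and Irgm1 ended in 8 alternatives each. That of Ifit1 ended when these groups were fitted alone, and that of Gbp3 without replicate 2 of either age. With age in the same floxed libraries 6 of 8 tested macrophage markers rose (summed 217 to 251 FPKM at 8 weeks and 329 to 378 FPKM at 14 weeks), as did 3 of 9 endothelial markers (123 to 165 FPKM and 189 to 199 FPKM) and 3 of 9 acinar markers (59.3 to 175 FPKM and 749 to 3960 FPKM), and their part in the result was not tested. Of the 39 other pathway genes 2 rose, the DNA-sensing adaptor gene Tmem173 (STING, 0.79, adjusted p = 0.0112) and Socs3 (0.83, adjusted p = 0.0266). In deleted islets limma called none of the 27 between the ages, against 2.91% of all tested genes, and 2 had an unadjusted p below 0.05. Of all 12234 tested genes 1864 had such a p. Of the 39 other pathway genes 1 was called there, the receptor kinase gene Tyk2 (0.51, adjusted p = 0.0454). The age and diet comparisons in floxed islets share the 14-week chow libraries.

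The genotype difference itself was compared between conditions in 2 contrasts chosen after seeing the data, which share the 8-week libraries. From 8 weeks to the high-fat diet it moved lower for 4 of 27 tested members (Rsad2, Ifit1, Gbp3 and Usp18), where 2.53% of all tested genes did. Age and diet change together in that contrast, so they cannot be told apart. From 8 weeks to 14 weeks on chow limma called none of the 27, against 0.196% of all tested genes, and 7 had an unadjusted p below 0.05, all of them lower. How many of all tested genes had such a p is not given here.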

How the data were processed

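The members, their roles and the other gene lists were chosen with earlier results of these data known, so no list is independent evidence. For every library the authors deposited a table of FPKM by gene. Per the submitters' processing notes these came from TopHat2 2.0.13, Bowtie2 2.2.3, SAMtools 0.1.19 and Cufflinks 2.2.1 on mm10; their roles, the annotation and the strand setting are not stated there. The tables do not name their unit, which was read from Cufflinks and the values. Per the labels' protocols, SMART-Seq HT cDNA and Nextera libraries were made, which do not mark strand, and near copies such as Ifit3 and Ifit3b, Oas1a and Oas1g may share reads.

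FPKM of each library was joined by symbol, and log2(FPKM + 1) of genes reaching 1 FPKM in 3 or more libraries was fitted with limma 3.58.1 (R 4.3.3, statmod 1.5.0; 6 group means, trended and robust variances). Calls used an adjusted p below 0.05 (Benjamini-Hochberg over 12234 genes) in 8 contrasts, with 2 contrasts added after seeing the data. Ifng, constant on chow, and the 13 untested members were compared by exact permutation, with all arrangements listed in Python 3.11.15 and numpy 2.4.6. Planned correlations with Ifng were not run: it was 0 in all chow libraries, and the 6 high-fat diet libraries fell apart by genotype. Motifs were searched in the 250 bases before each listed promoter start. All 40 members could be named, and those called or not overlapping in a diet or genotype contrast were to be given in full. Other pathway genes were named where called or where they are ligands or receptors, and Serpina3g was named for its values. The model was tested on simulated data. Alternatives were another pseudocount, filters, scalings, weights, fewer groups, a replicate block and each library left out. A gene of the wider list is not reported here. Figures were drawn with matplotlib 3.10.9.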

Additional observations from a re-analysis of the deposited data

Results flagged for a closer look

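For some members the genotype difference pointed in opposite ways in different conditions, with every deleted library on 1 side of every floxed library each time. Between 8 weeks, where the deleted libraries were higher, and the high-fat diet, where they were lower, the genotype difference shifted by -1.26 for Ifit1, -1.04 for Gbp3, -0.74 for Zbp1 and -0.68 for Usp18 in log2(FPKM + 1). These conditions differ in both age and diet, which cannot be told apart in that shift. A limma test of that shift, chosen after seeing the data, called Ifit1 (adjusted p = 0.00581), Gbp3 (adjusted p = 0.00877) and Usp18 (adjusted p = 0.0230), and also Rsad2, whose genotypes overlapped at 8 weeks (-1.78, adjusted p = 0.00174). These 4 of 27 tested members were lower in it, against 2.53% of all tested genes, and the shift of Zbp1, below the filter, was not tested. The calls of Ifit1, Gbp3 and Rsad2 held in all 25 alternatives, and that of Usp18 ended without the filter and without replicate 3 of the floxed or replicate 1 of the deleted 8-week group, or replicate 1 or 3 of either high-fat diet group.

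Between 8 weeks and 14 weeks on chow the genotype difference likewise changed from higher to lower in deleted libraries, by -0.92 for Ifit1, -0.77 for Gbp3 and -0.44 for Irgm1, the autophagy GTPase. The limma test of that shift called none of them (adjusted p = 0.159, 0.184 and 0.148), and 24 of 12234 genes (0.196%). Their unadjusted p-values were 0.00164, 0.00228 and 0.00141 in the same fit. Both shifts use the same 8-week libraries.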

How the results depend on the processing

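None of the called differences changed direction among the alternatives run. The count of members called on the high-fat diet between genotypes (9) was 2 among genes whose mean reached 5 FPKM, which keeps fewer members, and 3 to 10 with a library left out. For diet in floxed islets (5) it was 2 with that mean, 1 when the fit held the compared groups alone, and 1 to 5 with a library left out. For diet in deleted islets (1) it was 0 with no filter, 5 with sample quality weights, and 0 to 2 with a library left out. For age in floxed islets (4) it was 2 with no filter, 1 with the mean of 5 FPKM, 9 with sample quality weights, 1 with the compared groups alone, and 1 to 5 with a library left out. For genotype at 8 weeks (1) it was 0 with a pseudocount of 0.1, no filter, the mean of 5 FPKM or the compared groups alone, and 0 to 1 with a library left out. For genotype at 14 weeks on chow (0) it was 3 with sample quality weights and 0 to 1 with a library left out, and for the genotype by diet test (0) it was 0 to 1, with 1 called without replicate 2 of either floxed 14-week group. For age in deleted islets it was 0 throughout the leave-one-out fits. The causes were not tested. The diet difference of Ifng was 3.86, and 7.09 at a pseudocount of 0.1. The exact permutation p was 0.005 for both, which complete separation of the diets fixes at any pseudocount.

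Replicate numbers did not pair the libraries: in 0 of 15 pairs of groups did all same-numbered libraries deviate together (r from -0.159 to 0.232). With the replicate number as a block the number of members called was the same in all 8 comparisons (9 for genotype on the diet, 5 and 1 for diet, 4 and 0 for age in floxed and deleted islets, 1 and 0 for genotype on chow, 0 for genotype by diet), though Cd274 (-0.27, adjusted p = 0.058) and Rsad2 for age (0.83, adjusted p = 0.054) lost their calls. Fragment totals are unknown, so members below 1 FPKM carry no counting interval.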
